A study of Mus musculus with 4 samples.

Results

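The genes described here encode the subunits of the mitochondrial respiratory chain and of the ATP synthase, measured by RNA sequencing of mouse liver. The rule for members uses gene symbols and no measured value. They are the protein-coding genes whose names begin with Ndufa, Ndufb, Ndufc, Ndufs, Ndufv, Uqcr, Cox4, Cox5, Cox6, Cox7, Cox8 or Atp5, the genes Sdha to Sdhd and Cyc1, and the 13 protein-coding genes of mitochondrial DNA. Assembly factors and pseudogenes were left out. This gave 99 of the 37315 genes in the count tables, 86 of them nuclear and 13 mitochondrially encoded. The nuclear members lie on 19 chromosomes. A further gene model, a second entry named Atp5o, meets the rule in the annotation and was not analysed here.

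The libraries came from liver of C57BL/6 mice aged 23 weeks, in 2 groups of 2. The wild type group serves as the control, and the mutant group carries a synonymous mutation of Foxo1, that is, a change of the coding sequence that leaves the amino acid as it was. Foxo1 encodes a forkhead transcription factor that insulin signalling keeps out of the nucleus. The position of the mutation, its zygosity, the sex and feeding state of the mice and whether each library is a separate animal are not stated in the labels, so the p-values measure the spread between these libraries, which may be technical. Total counts were 80975687 and 73551737 in wild type replicates 1 and 2, and 95908652 and 83594287 in mutant replicates 1 and 2. Levels are given as CPM, the usual unit of counts relative to the library size, here with the size scaled by TMM. In each library 3 counts correspond to 0.0315 to 0.0415 CPM, a floor that covers counting error only.

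The respiratory chain sits in the inner mitochondrial membrane and passes electrons from NADH (complex I) and succinate (complex II) through coenzyme Q to complex III, then through cytochrome c to complex IV, where oxygen is reduced. Complexes I, III and IV pump protons as they do so, and the ATP synthase (complex V) uses the resulting gradient to make ATP. All of these except complex II combine subunits translated in the cytosol from nuclear genes with subunits translated inside mitochondria from mitochondrial DNA, so their assembly draws on both genomes. Hepatocytes, which are rich in mitochondria, depend on this chain for gluconeogenesis, urea synthesis and fatty acid oxidation.

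Transcription factors long known for sites in promoters of nuclear respiratory genes include NRF1, GABP (also called NRF2) and YY1. Short forms of their motifs were searched on both strands of RefSeq promoter windows of the GRCm38.p6 build, each 250 bases before to 50 after the annotated start. The motif letters were GCGCANGCG for NRF1, CCGGAAG for GABP and AANATGGCG for YY1. The NRF1 letters can match both strands at 1 place, where matches overlap and are counted separately. Of the 86 nuclear members, 67 had a window. Those without include Atp5a1, Atp5f1, Atp5mpl, Atp5s, Cox4i1, Cox4i2, Cox6a2, Cox6c, Cox8c, Cyc1, Ndufa2, Ndufa4l2, Ndufb9, Ndufs1, Sdhc, Uqcrb, Uqcrc2 and Uqcrq. An NRF1 match was present in 19 windows (28.4%), a GABP match in 15 (22.4%) and a YY1 match in 8 (11.9%), and at least 1 of the 3 in 35 (52.2%). Over the 16518 protein-coding genes with a window the shares were 9.21%, 12.4%, 3.49% and 22.0%, and over the 10500 of these that were tested in liver they were 13.2%, 17.6%, 5.11% and 31.1%. A match is a description of letters, not of a bound site.

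The sequences below are 150 bases from RefSeq (GRCm38.p6) for each of 5 members on the minus strand, read 5′ to 3′ along the gene. Each stretch ends just before the start annotated in RefSeq or that in GENCODE, whichever lies further upstream. These starts were 40 bp apart for Sdha, 37 bp for Sdhd and 23 bp for Cox6a1, and identical for Cox8a and Cox8b. Sdha (chr13:74350281-74350430) and Sdhd (chr9:50603850-50603999) are shown for complex II, whose 4 subunits are given in full below, Cox6a1 (chr5:115348982-115349131) as the nuclear complex IV gene of highest level per kb, and Cox8a (chr19:7217617-7217766) with Cox8b (chr7:140900447-140900596) as a pair of isoforms that stood at opposite ends of the range in liver. Capitals mark the matches.
Sdha: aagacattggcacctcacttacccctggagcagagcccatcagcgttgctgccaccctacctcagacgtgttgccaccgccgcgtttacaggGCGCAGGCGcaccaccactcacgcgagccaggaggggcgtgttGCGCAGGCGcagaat
Sdhd: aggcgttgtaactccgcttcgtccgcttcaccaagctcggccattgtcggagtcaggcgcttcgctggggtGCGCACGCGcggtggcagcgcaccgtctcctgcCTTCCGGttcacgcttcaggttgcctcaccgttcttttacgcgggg
Cox6a1: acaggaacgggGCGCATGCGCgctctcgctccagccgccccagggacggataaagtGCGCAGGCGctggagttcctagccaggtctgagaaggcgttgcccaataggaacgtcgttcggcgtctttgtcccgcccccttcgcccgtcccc
Cox8a: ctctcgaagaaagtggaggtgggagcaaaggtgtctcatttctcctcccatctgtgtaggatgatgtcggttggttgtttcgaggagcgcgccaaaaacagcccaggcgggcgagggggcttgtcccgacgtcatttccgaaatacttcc
Cox8b: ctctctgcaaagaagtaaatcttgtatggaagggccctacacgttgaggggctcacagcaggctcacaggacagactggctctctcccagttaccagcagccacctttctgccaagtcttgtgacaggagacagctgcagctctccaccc
The Sdha stretch holds 2 NRF1 matches, the Sdhd stretch an NRF1 match and a GABP match, and the Cox6a1 stretch 3 NRF1 matches, of which the first 2 overlap on opposite strands. The longer Cox6a1 window has a GABP match outside the bases shown. Neither Cox8 stretch holds a match, though the longer Cox8a window has a GABP match outside the bases shown. They differ in CpG dinucleotides, with 10 in the Cox8a stretch and 1 in that of Cox8b.

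Foxo1 itself was at 44.0 and 54.8 CPM in the wild type libraries and at 33.6 and 53.4 CPM in the mutant libraries. The groups overlapped, and the log2 fold change of mutant over wild type was −0.18 (SE 0.30, 95% confidence interval −1.11 to 0.74, edgeR adjusted p = 1). A synonymous change need not alter the transcript level, so this value does not check the labels. Hepatocyte markers were abundant, with no measured one of the 11 below 549 CPM in any library. Markers of skeletal and heart muscle reached at most 0.263 CPM, and 2 of the 10 were at 0 in every library.

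No subunit gene passed the test. Of the 99 members, 94 had enough counts to be tested, all 13 mitochondrially encoded genes and 81 of the nuclear ones, and 0 reached an adjusted p below 0.05 in edgeR's quasi-likelihood test, against 50 of the 14657 genes tested in all (0.341%). At an unadjusted p below 0.05 there were also 0 members, against 6.19% of all tested genes. DESeq2 called 0 members and 0.811% of its tested genes, and limma-voom 0 members and 0.0478%. Among the members 41 log2 fold changes were positive and 53 negative, with a median of −0.01, beside 7283 positive and 7374 negative and a median of −0.001 over all tested genes. The fold changes ran from −0.46 for mt-Nd4l to 0.16 for Ndufs6. In bulk tissue, fewer cells of a type and less RNA per cell cannot be told apart.

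The confidence intervals bound the size of a difference between these libraries only, since the spread behind them may be technical. In 83 of the 94 genes (88.3%) the log2 fold change lay within 0.1 of 0, a property of 45.1% of all tested genes. The median absolute log2 fold change was 0.0462 among members and 0.115 among all genes, and the median SE 0.10 and 0.148. For 90 of the 94 the whole 95% confidence interval lay inside a 1.5-fold change in either direction (0.585 on the log2 scale). The other 4 were mt-Nd4l and 3 thinly expressed genes, Ndufa4l2, Cox7a1 and Cox6b2. Groups did not overlap in 14 members that were lower in both mutant libraries (14.9%) and in 4 that were higher (4.26%), while 17.0% of all tested genes were lower and 17.0% higher without overlap. No comparison with genes matched on level was made.

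**Figure D1:**
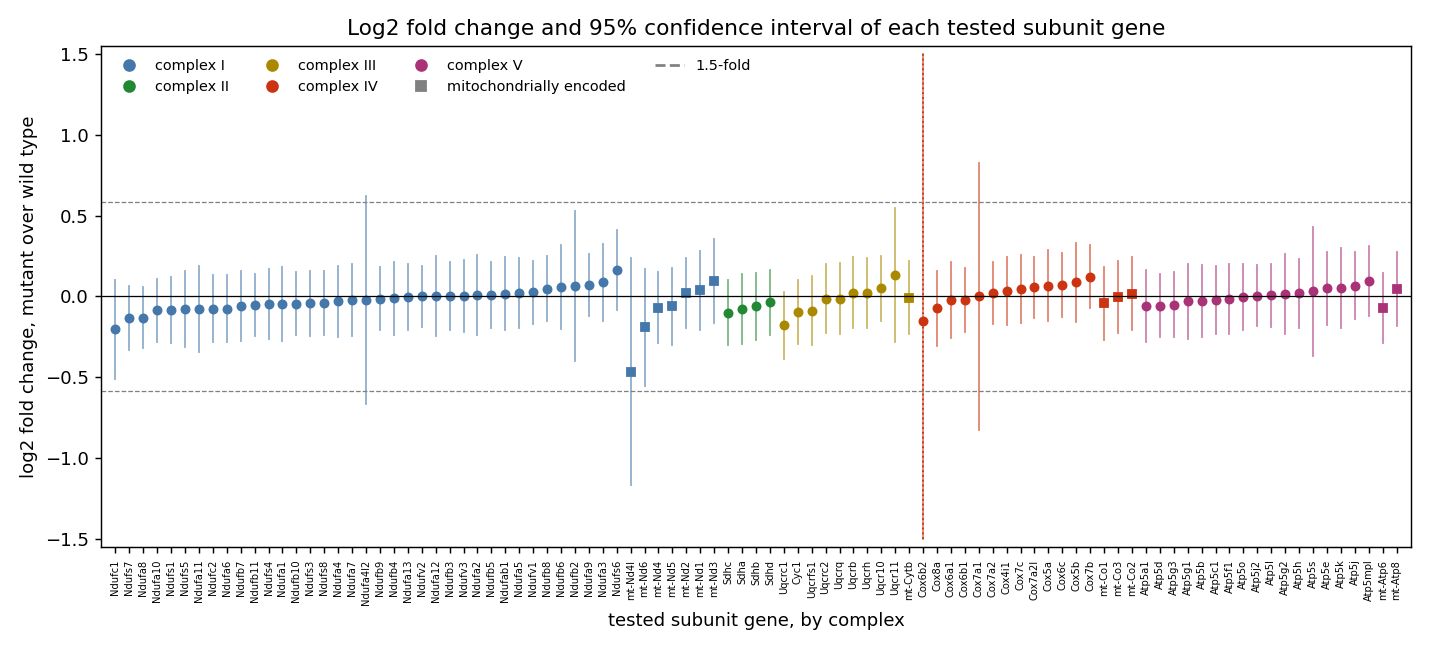
Log2 fold change of mutant over wild type (y axis) for 93 of the 94 tested subunit genes (x axis, grouped by complex and sorted within it), with the 95% confidence interval as a vertical line and dashed lines at a 1.5-fold change. Circles are nuclear and squares mitochondrially encoded genes; every interval drawn crosses 0, and the dotted line of Cox6b2 marks an interval, −1.81 to 1.51, that runs past the axis.

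The 4 libraries gave similar sums over all members. Summed CPM was 131729 and 142635 in wild type and 134611 and 134651 in the mutant, a share of 13.4% to 14.0% of all counts. The wild type libraries enclosed both mutant values. Most of this came from mitochondrially encoded transcripts, at 124194 and 134962 CPM in wild type against 127040 and 127279 CPM in the mutant. The 86 nuclear genes together held 7535 and 7672 CPM in wild type against 7572 and 7373 CPM in the mutant. Mitochondrially encoded transcripts thus exceeded nuclear ones 16.5-fold and 17.6-fold in wild type, and 16.8-fold and 17.3-fold in the mutant, with the mutant ratios between those of the wild type libraries.

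**Figure D2:**
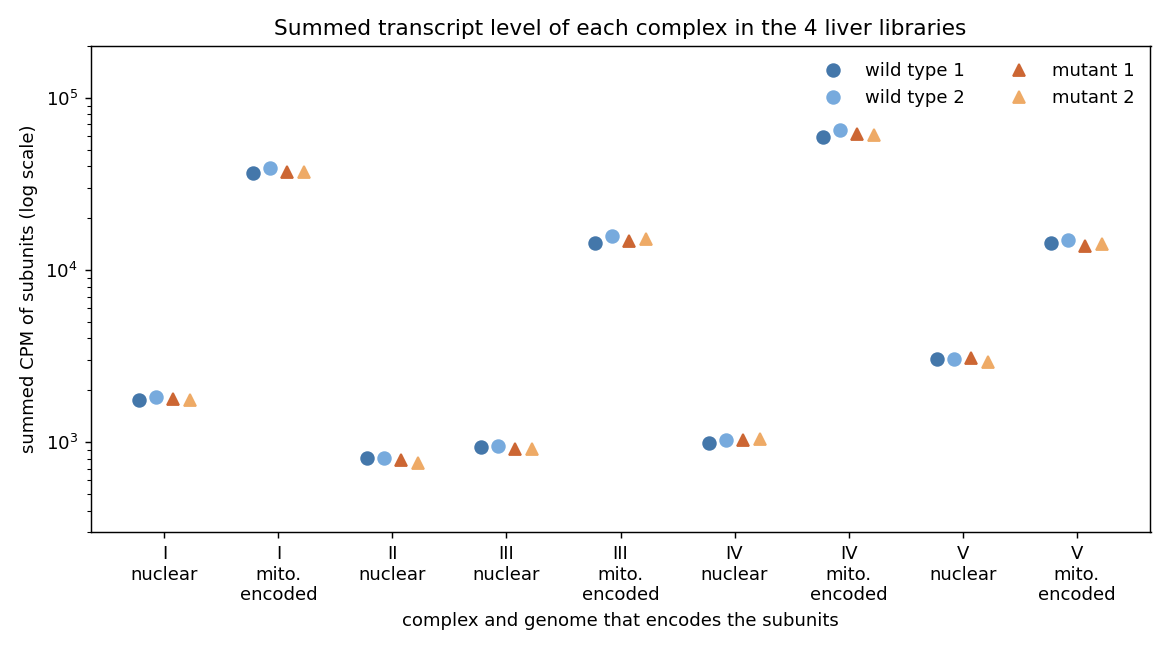
Summed CPM of the subunit genes (y axis, log scale) for each complex, split by the genome that encodes them (x axis), with 1 symbol per library. Circles are the wild type and triangles the mutant libraries; in each column the 4 symbols lie close together, and the mitochondrially encoded subunits of complex IV have the highest sum, 59116 to 65284 CPM.

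Complex I, the NADH dehydrogenase, is the largest of the set, with 38 nuclear and 7 mitochondrially encoded members, all tested. The nuclear ones had a median log2 fold change of −0.02, with 14 positive and 24 negative (0.01 without wild type replicate 2 and −0.06 without wild type replicate 1), and summed to 1766 and 1835 CPM in wild type against 1775 and 1759 CPM in the mutant.

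Ndufs6, an accessory subunit that binds zinc, had the largest positive value of all members. It was at 27.6 and 34.1 CPM in wild type against 36.2 and 32.8 CPM in the mutant (log2 fold change 0.16, SE 0.11, 95% confidence interval −0.08 to 0.41). Its value was 0.02 without wild type replicate 1 and 0.32 without wild type replicate 2. The second wild type library lay between the mutant libraries, and the gene's exons overlap Mrpl36 on the opposite strand (chr13:73319838-73328542). Ndufc1, a small accessory subunit of the membrane arm, had the most negative nuclear value, from 9.62 and 11.6 CPM in wild type to 8.50 and 9.88 CPM in the mutant (−0.20, SE 0.14, interval −0.51 to 0.10). Here the groups overlapped too, and with 1 library left out the value ranged from −0.33 to −0.07. Ndufa4 was the nuclear gene with a complex I name of highest level per kb, at 97.5 CPM per kb of exon, although its protein is found in complex IV. It was at 128 and 144 CPM in wild type against 127 and 139 CPM in the mutant.

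Among the 7 subunits of complex I from mitochondrial DNA, which form the proton-pumping membrane core, the median log2 fold change was −0.06 (3 positive, 4 negative). mt-Nd4 was at 12327 and 12405 CPM in wild type against 11434 and 12108 CPM in the mutant (−0.07, SE 0.10). It was lower in both mutant libraries, as were 17.0% of all tested genes. The group means differed by less than the mutant libraries did. mt-Nd1 was at 6292 and 7333 CPM against 7226 and 6752 CPM (0.04), and mt-Nd2 at 10357 and 10070 CPM against 10380 and 10335 CPM (0.02). mt-Nd3 was at 869 and 1043 CPM against 1085 and 956 CPM (0.09). In mt-Nd1 and mt-Nd3 the wild type libraries differed by more than the group means did. mt-Nd5 was at 5415 and 6342 CPM against 5575 and 5689 CPM (−0.06). mt-Nd6, the only protein-coding gene on the light strand, was at 1273 and 1736 CPM against 1434 and 1200 CPM (−0.19, SE 0.16). The exons of mt-Nd5 and mt-Nd6 overlap on opposite strands, and reads of both strands look alike in this kit.

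mt-Nd4l had the most negative value of all members, and it rests on 1 library. Its CPM was 27.7 and 16.9 in wild type and 16.3 and 16.0 in the mutant (−0.46, SE 0.26, 95% confidence interval −1.17 to 0.24, edgeR adjusted p = 0.966). The first wild type library was high, and the other 3 lay within 1 CPM of each other. Without that library the log2 fold change was −0.06. Without any filter on low counts, mt-Nd4l had an adjusted p of 0.0196 in edgeR and was then the only member past the threshold. The gene (chrM:9877-10173) overlaps mt-Nd4 on the same strand, and its level of 64.8 CPM per kb was the lowest of the 13, below mt-Nd6 at 2718 CPM per kb and mt-Nd4 at 8758 CPM per kb. An annotated nuclear pseudogene, Gm10222, is identical to it over 294 bases and held 3.57, 3.21, 3.15 and 10.6 CPM in the same order of libraries. The sum of both, a measure added after these values were seen, was 31.3 and 20.1 CPM in wild type against 19.5 and 26.6 CPM in the mutant, so that the groups overlapped. How the reads of this pair were divided cannot be seen from the counts, and the level of mt-Nd4l is uncertain.

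Complex II, the succinate dehydrogenase, links the chain to the tricarboxylic acid cycle and has 4 subunits, all nuclear. The log2 fold changes of all 4 were below 0, median −0.07, and 0 passed the test. Their sum was 803 and 811 CPM in wild type against 786 and 751 CPM in the mutant, 4.77% lower in the mutant mean and without overlap of the groups. Sdha, the flavoprotein, was at 428 and 418 CPM in wild type against 410 and 392 CPM in the mutant (−0.08, SE 0.10, 95% confidence interval −0.30 to 0.14). Sdhb, the iron-sulfur subunit, was at 115 and 125 CPM against 118 and 112 CPM (−0.06, SE 0.09). The membrane anchor Sdhc was at 119 in both wild type libraries and at 115 and 107 CPM in the mutant (−0.10, SE 0.09), and the second anchor, Sdhd, at 142 and 149 CPM against 142 and 141 CPM (−0.04, SE 0.09). The groups did not overlap for Sdha and Sdhc, and they overlapped for Sdhb and Sdhd. Being lower in the mutant without overlap was a property of 17.0% of all tested genes.

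Complex III, the cytochrome bc1 complex, has 9 nuclear members with a median log2 fold change of −0.01 (4 positive, 5 negative). They summed to 934 and 948 CPM in wild type against 915 and 909 CPM in the mutant, 3.02% lower in the mutant mean and without overlap. The smallest p-value of any member belonged to Uqcrc1 (chr9:108936633-108949623), a core protein on the matrix side. It was at 191 and 179 CPM in wild type against 160 and 166 CPM in the mutant (−0.18, SE 0.10, 95% confidence interval −0.39 to 0.03). Both mutant libraries were below both wild type libraries, and the unadjusted p was 0.0875 and the edgeR adjusted p 0.917. Cyc1, cytochrome c1, was at 113 and 114 CPM against 105 and 108 CPM (−0.10, SE 0.09), again without overlap, as were 17.0% of all tested genes in this direction. Uqcr11, a small subunit, had the largest positive value of the complex at 0.13 (SE 0.17), but each genotype held a low and a high library, 43.1 and 53.7 CPM in wild type against 45.3 and 60.8 CPM in the mutant. Uqcrb, of highest level per kb of union exon among the nuclear genes of this complex, was at 79.0 and 90.5 CPM against 91.0 and 81.1 CPM (0.02). mt-Cytb, the cytochrome b that carries the quinone sites, was at 14266 and 15768 CPM in wild type against 14765 and 15105 CPM in the mutant (−0.01, SE 0.10), with both mutant libraries between those of wild type.

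Complex IV, cytochrome c oxidase, had 13 tested nuclear genes with a median log2 fold change of 0.03 (9 positive, 4 negative). The median was −0.01 when members with a near-identical copy were left out, and 0.008 without mutant replicate 1. The sum of its 18 nuclear members was 994 and 1034 CPM in wild type against 1028 and 1044 CPM in the mutant, 2.19% higher in the mutant mean, and the groups overlapped. Cox7b, a small subunit, was at 83.0 and 88.0 CPM in wild type against 93.7 and 92.4 CPM in the mutant (0.12, SE 0.09, interval −0.07 to 0.32), the largest positive value of the complex. Cox7a2l, a factor of supercomplexes, was at 58.7 and 59.8 CPM against 60.0 and 63.2 CPM (0.06). These were the only tested members of complex IV whose groups did not overlap. They make up 15.4% of its tested nuclear genes, and 17.0% of all tested genes were higher in the mutant without overlap. Cox6a1 was at 120 and 127 CPM against 110 and 133 CPM (−0.02), the mutant libraries enclosing those of wild type. The catalytic core comes from mitochondrial DNA. mt-Co1, which holds the site of oxygen reduction and was the most abundant member per kb at 25035 CPM per kb, was at 37063 and 41432 CPM in wild type against 37691 and 38531 CPM in the mutant (−0.04, SE 0.10). mt-Co2 was at 10129 and 11132 CPM against 11090 and 10432 CPM (0.02), and mt-Co3 at 11924 and 12721 CPM against 12514 and 12087 CPM (−0.003). For all 3 the second wild type library exceeded the first, and the mutant values lay between them.

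Several subunits of complex IV have isoforms for particular tissues, and here liver isoforms were separated from the rest by orders of magnitude. Cox4i1, the isoform of most tissues, had 18105 and 16259 counts in wild type and 22045 and 18555 in the mutant, while Cox4i2, known from lung, had 1, 0, 0 and 3. Cox6a1 had 9937, 9210, 10507 and 11134 counts, and Cox6a2, the form of heart and skeletal muscle, 8, 4, 4 and 0. Cox7a2 had 3955, 3432, 4724 and 3928 counts, and the muscle form Cox7a1 35, 23, 42 and 25. In each of these pairs the form known from liver held nearly every count in all 4 libraries. Cox7a2l, related in sequence to Cox7a2 and general in its expression, had more counts than it in each library (4873, 4320, 5716 and 5288).

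Cox8a, the ubiquitous form, had 5730, 4834, 5497 and 5989 counts, the muscle form Cox8b 0, 0, 0 and 1, and the testis form Cox8c 0 in every library, which allows up to 0.0415 CPM in the shallowest. Cox6b1 had 9834, 8824, 11389 and 9829 counts, and Cox6b2, known from testis, 22, 6, 11 and 17. Cox7b had 6884, 6359, 8925 and 7733 counts and Cox7b2, also a testis form, 0, 0, 1 and 0. The 5 members with fewer than 20 counts over all libraries, Cox4i2, Cox6a2, Cox7b2, Cox8b and Cox8c, are those that were not tested. Outside complex IV, Ndufa4l2, a relative of Ndufa4 known from hypoxia, had 108, 79, 121 and 91 counts beside 10632, 10395, 12119 and 11651 for Ndufa4. The same isoforms led in both genotypes. Cox6b2 and Cox7a1, which could be tested, had log2 fold changes of −0.15 (SE 0.76) and 0.000 (SE 0.38), with intervals of −1.81 to 1.51 and −0.83 to 0.83.

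**Figure D3:**
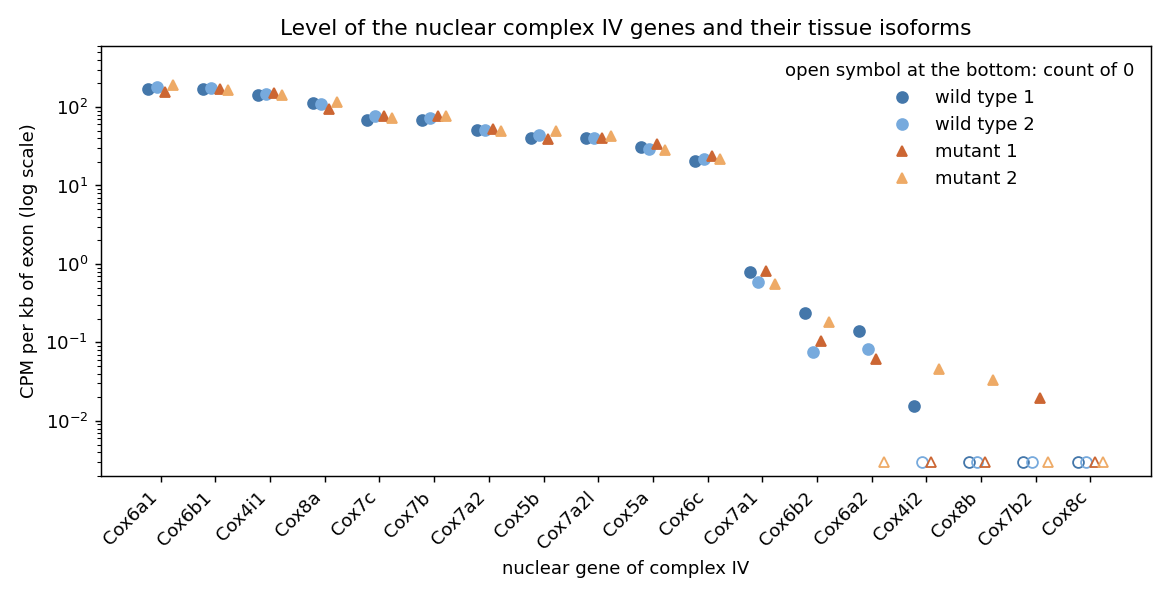
Level of each nuclear complex IV gene in CPM per kb of union exon (y axis, log scale), ordered from the highest to the lowest mean, with 1 symbol per library. Filled symbols are measured values and open ones at the bottom edge stand for a count of 0; the liver and general forms lie together at the top, Cox6a1 at a mean of 175 CPM per kb, and Cox7a1 leads the group of thinly expressed isoforms at 0.692 CPM per kb.

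Complex V, the ATP synthase, had 17 nuclear members with a median log2 fold change of 0.003 (9 positive, 8 negative), all within 0.1 of 0. They summed to 3039 and 3045 CPM in wild type against 3068 and 2908 CPM in the mutant. The 5 genes of the F1 part, which includes the catalytic subunits, are Atp5a1, Atp5b, Atp5c1, Atp5d and Atp5e. They held 2092 and 2052 CPM of this sum in wild type against 2070 and 1963 CPM in the mutant. Atp5b, the catalytic beta subunit, was at 964 and 927 CPM against 956 and 899 CPM (−0.03, SE 0.10), and Atp5a1, the alpha subunit, at 806 and 795 CPM against 789 and 749 CPM (−0.06, SE 0.10). Their 95% confidence intervals, −0.25 to 0.20 and −0.28 to 0.16 respectively, lay inside a 1.5-fold change between these libraries. Atp5mpl, a small membrane subunit, had the largest positive value at 0.10 (SE 0.10), from 32.9 and 37.2 CPM to 39.1 and 35.8 CPM. The c-ring that turns with proton flow is encoded by 3 genes for the same mature protein. Atp5g3 was at 119 and 117 CPM against 117 and 110 CPM, Atp5g1 at 73.0 and 86.4 CPM against 72.8 and 83.2 CPM, and Atp5g2 at 17.3 and 19.8 CPM against 17.7 and 19.7 CPM. Together they held 209 and 223 CPM in wild type against 208 and 213 CPM in the mutant. This sum, like that of the F1 part, was added after the values were seen. Of the subunits from mitochondrial DNA, mt-Atp6, which forms the proton channel beside the ring, was at 13736 and 14418 CPM against 13303 and 13497 CPM (−0.07, SE 0.10), without overlap, and mt-Atp8 at 516 and 547 CPM against 527 and 571 CPM (0.05, SE 0.10). The 2 summed to 14252 and 14965 CPM in wild type against 13830 and 14068 CPM in the mutant, also without overlap. Of the 17 nuclear members, 2 were lower without overlap as well, Atp5a1 and Atp5d, as were 17.0% of all tested genes.

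Compared per kb of union exon, nuclear members ranged up to 250 CPM per kb for Atp5a1 with a median of 33.4 CPM per kb, and mitochondrially encoded members from 64.8 to 25035 CPM per kb with a median of 8758 CPM per kb. The order among nuclear genes depends on the length used. By the length of the principal transcript, an alternative added after union exons were seen to include long alternative exons, Atp5b led at 489 CPM per kb and the nuclear median was 60.3 CPM per kb. The leading gene of complex II changed from Sdhd to Sdha, of complex III from Uqcrb to Uqcrh and of complex IV from Cox6a1 to Cox4i1, whereas Ndufa4 led complex I by both.

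The spread inside a genotype was compared with the difference between genotypes. Among the 81 tested nuclear genes the median absolute log2 ratio was 0.0843 between the wild type libraries, 0.0933 between the mutant libraries and 0.0463 between the group means, and at least 1 of the pairs differed by more than the means in 70 of them. Among the 13 mitochondrially encoded genes these medians were 0.144, 0.0501 and 0.0464, and this held for 12. The same was true of 77.5% of the 14626 tested genes with counts in every library. The wild type libraries differed in a common direction: the second exceeded the first in 54 of 81 nuclear and 11 of 13 mitochondrially encoded genes, beside 51.1% of all tested genes. In the mutant, the second library exceeded the first in 29 of 81 and 6 of 13, beside 50.2%.

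**Figure D4:**
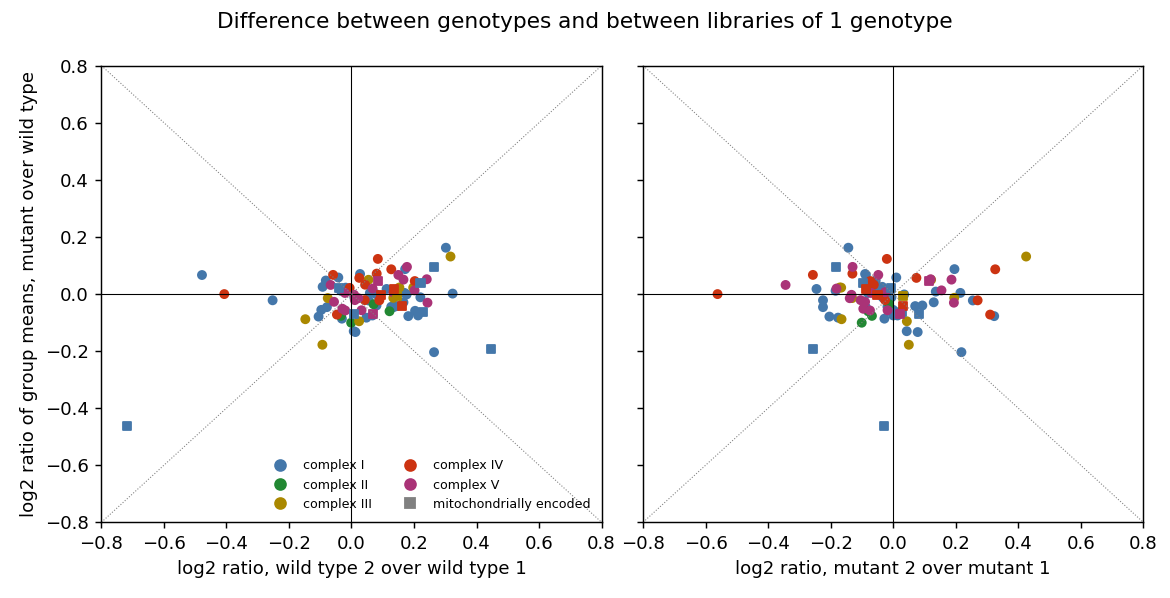
Log2 ratio of the group means, mutant over wild type (y axis), against the log2 ratio of the replicates in wild type (x axis, left panel) and in the mutant (x axis, right panel), with 1 point for each member drawn, coloured by complex. Points between the dotted diagonals and the x axis have a larger difference between replicates than between genotypes, as 70 of 81 nuclear genes had in at least 1 panel; Cox6b2, at most 0.265 CPM, is not drawn.

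The count of a member can hold reads of other genes. Exons of 40 members overlap another gene, 30 of them on the opposite strand, and 33 members have an annotated near-identical copy (at least 95% identity over at least 150 bases). In 3 of these the copies held over 5% of the joint counts: Atp5g2 at 39.7%, mt-Nd4l at 21.1% and Uqcr10 at 7.77%. Levels of these 3 are uncertain. Copies of mt-Co3, mt-Atp6, mt-Nd3 and mt-Nd4 that are annotated in the nuclear genome were not analysed here. The same holds for some copies of mt-Co1, mt-Co2, Atp5h, Atp5l, Cox6c, Cox7b and Cox7c and for that of Ndufb3. The shares of joint counts leave all of these out.

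Genes that serve the chain were examined by lists. Of 45 tested assembly factors, proteins that build the complexes without staying in them, 0 passed the test, 11 were positive and 34 negative, and the median log2 fold change was −0.09. The most abundant of them per kb were Coa3 (0.10) and Ndufaf1 (−0.15). An unadjusted p below 0.05 was found for 3 of the 45, where 6.19% of all tested genes had one. They were named after their values were seen: Ecsit (−0.28), Cox15 (−0.27) and Ndufaf2 (−0.37), with edgeR adjusted p-values of 0.488, 0.616 and 0.740. Each was lower in both mutant libraries, as were 18 of the 45 factors (40.0%), beside 17.0% of all tested genes. A further 4 factors (8.89%) were higher in both mutant libraries, also beside 17.0%. The summed CPM of these factors was 625 and 626 in wild type and 604 and 566 in the mutant.

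Of 30 genes for the maintenance and expression of mitochondrial DNA, 10 were positive and 20 negative (median −0.03) and 0 passed. Tfam, which packages mitochondrial DNA and takes part in starting its transcription, was at 31.9 and 31.0 CPM against 31.7 and 28.9 CPM (−0.06). Hsd17b10 and Tufm, the most abundant per kb, both had −0.11. The only unadjusted p below 0.05 was that of Tbrg4 (−0.32, edgeR adjusted p = 0.368), named after its value was seen. Of 16 regulators of nuclear respiratory genes, 5 were positive and 11 negative (median −0.05) and 0 passed. Ppargc1a, the coactivator PGC-1 alpha, was at 11.8 and 9.24 CPM against 10.9 and 10.7 CPM (0.04). Nrf1 was at 8.16 and 8.21 CPM against 6.43 and 7.15 CPM (−0.27, SE 0.14), and Gabpa at 45.3 and 51.8 CPM against 45.9 and 45.1 CPM (−0.09). Ppara and Nfe2l2, the most abundant per kb, had −0.01 and −0.06. Esrrg, an orphan receptor of oxidative tissues, had the largest difference of the list, from 3.05 and 2.12 CPM to 1.25 and 1.31 CPM (−1.01, SE 0.26, edgeR adjusted p = 0.207). It was the only 1 of the 16 with an unadjusted p below 0.05 and was named after its value was seen.

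Of 17 genes of the tricarboxylic acid cycle and pyruvate dehydrogenase, which feed NADH and succinate to the chain, 2 were positive and 15 negative (median −0.07), and 0 passed. Suclg2 and Ogdh, the most abundant per kb, had −0.11 and −0.02. An unadjusted p below 0.05 was found for 2, Dlat (−0.30, edgeR adjusted p = 0.677) and Fh1 (0.20, adjusted p = 0.792), of opposite sign and likewise chosen with their values known. Of 20 genes for coenzyme Q, cytochrome c and other donors of electrons to the quinone pool, 5 were positive and 15 negative (median −0.09) and 0 passed in edgeR, while DESeq2 called 1. Cycs, cytochrome c, was at 76.1 and 80.5 CPM against 89.6 and 72.7 CPM (0.05), and Etfb and Etfa, which carry electrons from fatty acid oxidation, had −0.03 and −0.11. Gpd2, the mitochondrial glycerol-3-phosphate dehydrogenase, had the smallest p of the 2 genes of the list with an unadjusted p below 0.05, the other being Coq8a (−0.35, edgeR adjusted p = 0.548), and both were chosen after their values were seen. Gpd2 was at 28.7 and 24.6 CPM against 17.6 and 19.8 CPM (−0.51, SE 0.11, edgeR adjusted p = 0.122). Over all tested genes, 6.19% had an unadjusted p below 0.05 in edgeR, and DESeq2 called 0.811% of its tested genes. No test of a list as a whole was made.

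Ribosomal proteins give a scale for such shifts. The 78 tested genes of the cytosolic ribosome had a median of 0.08 (70 positive, 8 negative), the 76 of the mitochondrial ribosome a median of −0.07 (20 positive, 56 negative), and 0 passed in either. Respiratory chain members, with 41 positive and 53 negative, lay between these. Some markers of other cell types differed in the same libraries. All 12 Kupffer cell and macrophage markers had positive values. Their summed CPM was 342 and 363 in wild type and 517 and 597 in the mutant. In edgeR 6 of them passed the threshold, beside 0.341% of all tested genes, while DESeq2 called 10 and limma-voom 1. All 5 tested erythroid markers were positive, with 1 past the threshold (Hbb-bt, 0.79, edgeR adjusted p = 0.0146), and summed to 238 and 266 CPM against 295 and 335 CPM. Of 10 lymphocyte markers 7 were positive and 1, the general leukocyte gene Ptprc, passed (0.77, edgeR adjusted p = 0.0405). All 3 tested neutrophil markers were positive with 0 past the threshold. Limma-voom called 0 of the erythroid and lymphocyte markers. Lists of other liver cell types leaned the other way, with 0 past the threshold in edgeR. Sinusoidal endothelial markers were 2 positive and 8 negative (median −0.06), stellate cell markers 3 and 7 (−0.11) and cholangiocyte markers 0 and 6 (−0.06). The 11 measured hepatocyte markers had a median of −0.01, and their sum was 109662 and 123471 CPM in wild type against 107791 and 104600 CPM in the mutant. The part of any of these in the values of the subunit genes was not tested.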

How the data were processed

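Liver RNA of 4 mouse libraries, 2 wild type and 2 with a synonymous Foxo1 mutation, was isolated with TRIzol, enriched for mRNA on Dynabeads and made into TruSeq libraries sequenced as paired reads of 150 bp, per the labels' protocols. The kit does not mark strand. Each deposited table lists, for an Ensembl gene, its raw read count in 1 library. The submitters' processing notes name TopHat2 2.1.1, HTSeq 0.6.0 and the mm10 build. Not given in the sources used here are the counting mode, strand setting, annotation release and the handling of reads that map to several places. Each table had 37315 rows, 0 of them naming no gene. Symbols and coordinates are from GENCODE M21, with a second list of gene names for identifiers it lacks. Together they named 35533 identifiers (95.2%).

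Genes were kept by filterByExpr (minimum count 10), scaled by TMM and tested with glmQLFit and glmQLFTest (robust, group as the only term) in edgeR 4.0.16 under R 4.3.3, fitted on all 14657 genes kept, with Benjamini-Hochberg adjustment and a threshold of 0.05. The SE was taken as the size of the log2 fold change divided by the root of F. The fit was also run on simulated counts, with no value of that run given here. These counts were drawn independently for each library, so they cannot show whether the spread between the real libraries is technical. Near-identical copies were searched with blastn 2.17.0. Alternatives were RLE and upper-quartile scaling, library sizes without mitochondrial genes, other filters, edgeR without robust estimation, the replicate block, DESeq2 1.42.0, limma-voom (limma 3.58.1), an adjusted p of 0.1, leaving out copies and leaving out each library. Groups of 2 allow no test for outlying libraries.

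The members and lists were chosen with earlier results of these data known. Named genes are Foxo1, any member past the threshold, in each complex and genome the member of highest CPM per kb and those of largest positive and negative fold change, complex II, all mitochondrially encoded genes and the tissue isoforms, and in each list any gene past the threshold and the 2 of highest CPM per kb. Other members are named for their level or the lack of overlap, and genes of lists for their regulatory role. The list symbols Pet117, Tf and Ahsp were not analysed here. A gene that the rules take is not reported here by name.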

Additional observations from a re-analysis of the deposited data

How the results depend on the processing

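Of the respiratory chain genes, 0 passed under every alternative run except the fit without a filter, where 1 did (mt-Nd4l, log2 fold change −0.46). Over all genes the count past the threshold moved from 50 to 258 without a filter, 24 with a filter of 1 CPM in 2 libraries, 8 without robust estimation, 112 with DESeq2, 7 with limma-voom and 3 to 17 with 1 library left out (13 and 17 without wild type replicates 1 and 2, 3 and 15 without mutant replicates 1 and 2). The replicate block gave 111 genes past the threshold and 0 members. Deviations of libraries with the same number correlated at −0.0072. With groups of 2 this is a description, and it cannot show whether a number marks a shared litter or day. The causes were not tested. Leaving out members with a near-identical copy gave medians of −0.0107 for nuclear complex IV and 0.0464 for the remaining mitochondrially encoded gene of complex V. With 1 library left out, the median ranged from −0.0716 to 0.0491 for mitochondrially encoded complex I (0.0491 without wild type replicate 2), from −0.0651 to 0.0549 for nuclear complex III (0.0549 without wild type replicate 2), from −0.0662 to 0.0168 for nuclear complex V (−0.0662 without mutant replicate 1), from −0.05 to 0.03 for mitochondrially encoded complex V, from −0.06 to 0.01 for nuclear complex I and from 0.008 to 0.06 for nuclear complex IV. Of 29 named genes, 16 turned sign under some alternative, in 28 of 376 values, 25 of them from leaving out a library. The others were mt-Cytb without a filter (0.000252), and mt-Co3 without a filter (0.0056) and with the 1 CPM filter (0.0010). Leaving out 1 library gave ranges of −0.56 to 0.11 for Foxo1, −0.0308 to 0.23 for mt-Nd3, −0.11 to 0.0562 for Ndufa4, −0.0778 to 0.0661 for mt-Cytb, −0.0726 to 0.12 for Uqcrb, −0.10 to 0.33 for Uqcr11, −0.12 to 0.0402 for mt-Co1, −0.0484 to 0.0873 for mt-Co2, −0.0480 to 0.0449 for mt-Co3, −0.17 to 0.11 for Cox6a1, −0.74 to 0.92 for Cox6b2, −0.0150 to 0.10 for mt-Atp8, −0.12 to 0.0015 for Sdhb, −0.0688 to 0.15 for mt-Nd1, −0.17 to 0.0568 for mt-Nd5 and −0.40 to 0.0491 for mt-Nd6. Values that kept their sign but moved most were those of Ndufs6 (0.02 to 0.32), Ndufc1 (−0.33 to −0.07), Atp5mpl (0.009 to 0.19) and mt-Nd4l (−0.78 to −0.06). A lone library of a group is then assumed to vary like the pair of the other. For genes of low count, such as Cox6b2, depth limits the estimate.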

Other observations

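Nuclear subunit genes differed slightly by transcript length. The 40 tested members whose principal transcript was shorter than their median of 838 nt had a median log2 fold change of 0.01, with 24 positive and 16 negative, and the 41 at or above it a median of −0.02, with 12 positive and 29 negative. Over all tested genes with a principal transcript, the 497 shorter than 838 nt had a median of 0.02 (280 positive, 217 negative) and the 12808 others −0.002 (6331 positive, 6477 negative). The replicates differed along the same lines in wild type: the second library over the first had a median log2 ratio of 0.08 for the shorter and 0.02 for the longer subunit genes. In the mutant these medians were close to each other, −0.03 and −0.04.

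Of the nuclear members, 21 share a stretch between start sites with a protein-coding gene on the other strand within 1000 bp. Examples are Sdhd with Timm8b, a chaperone of mitochondrial import, 98 bp apart, and Ndufa7 with Rps28, a ribosomal protein, 10 bp apart. Of these neighbours 19 were tested, with a median log2 fold change of −0.02. In edgeR 0 passed the threshold and 0 had an unadjusted p below 0.05, beside 0.341% and 6.19% of all tested genes. The share of other genes with such a neighbour was not computed. Timm8b was at 13.6 and 14.3 CPM in wild type against 15.4 and 14.5 CPM in the mutant (0.10), where Sdhd had −0.04.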
